A study of Mus musculus with 6 samples.

Results

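The neuregulin and ErbB genes examined here are 6 genes chosen by symbol, the ligand genes Nrg1 and Hbegf and the receptor genes Egfr, Erbb2, Erbb3 and Erbb4. All 6 had a row among the 23284 genes of the deposited table. RNA was taken from heart ventricles at E9.5 from 3 WT and 3 KD C57BL/6 embryos. The WT embryos were wild type and the KD embryos were Tbx5ua -/-, with polyadenylation signals inserted into both alleles of the lncRNA gene Tbx5ua, which lies divergent to Tbx5, so that its transcription ends early. In both groups the embryos were tetraploid chimeras, in which the embryo proper comes from the injected ES cells and the tetraploid host contributes extraembryonic tissue. The ES cells were clonal and KD embryos were raised from more than one edited line, but the labels do not say which line each embryo came from. Libraries were made from 10 ng of total RNA by Smart-Seq2, a PCR-amplified full-length cDNA method for small amounts of polyadenylated RNA.

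Each gene has 1 value per group, an FPKM (fragments mapped to a gene, scaled to its transcript length and to all fragments mapped) that the authors' Cuffdiff run estimated from the 3 embryos together. No value of a single embryo was at hand and the authors' own comparison of the groups was not used here, so no SD or test is given, and no difference below is set against the spread between embryos. Depth is unknown, since the table holds no counts. Differences are KD minus WT on the log2(FPKM + 1) scale, which understates changes of low genes. Genes that reached 1 FPKM in WT, in KD or in both are called expressed here. Of 11606 expressed genes, 425 (3.66%) differed by 1.5-fold or more on that scale, 255 of them (2.20%) higher and 170 (1.46%) lower in KD.

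In the heart at this stage, neuregulin 1 is made by the endocardium, the inner lining, and is received by ErbB4 and ErbB2 on cardiomyocytes. ErbB2 binds no known ligand of its own and acts as the partner of the other receptors, whereas ErbB3 binds neuregulin but has little kinase activity. Mice that lack Nrg1, Erbb2 or Erbb4 die in mid-gestation without ventricular trabeculae, the muscular ridges that grow into the chamber. HB-EGF, the product of Hbegf, binds EGFR and ErbB4 and is known for its part in valve growth.

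The coding sequences of the receptors show one known root of this division of labour, the C-helix of the kinase domain. The stretches of 63 coding bases below are from GENCODE M21 transcripts on GRCm38, read 5′ to 3′ on the coding strand, and each spans 2 coding exons. The codon in capitals encodes a glutamate that pairs with the ATP-binding lysine in an active kinase, and ErbB3 is known to have a histidine there.
Egfr: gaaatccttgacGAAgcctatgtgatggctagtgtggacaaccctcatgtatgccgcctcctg
Erbb2: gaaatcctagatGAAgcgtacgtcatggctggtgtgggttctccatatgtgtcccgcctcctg
Erbb3: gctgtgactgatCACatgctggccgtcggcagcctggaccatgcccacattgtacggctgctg
Erbb4: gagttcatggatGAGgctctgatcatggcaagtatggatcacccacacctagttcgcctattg
Counted from the first base of that codon in Erbb2, Erbb3 carried G1C and A3C, and Erbb4 carried A3G. Over the whole stretch Egfr differed from Erbb2 at 15 bases, Erbb4 at 26 and Erbb3 at 37. The stretches lie on chr11:16893095-16896944 (plus strand) for Egfr, chr11:98433486-98433942 (plus) for Erbb2, chr10:128572894-128573186 (minus) for Erbb3 and chr1:68198977-68250591 (minus) for Erbb4, introns included.

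The ligands share the EGF-like domain that binds the receptor. Its coding sequence is shown for Nrg1 and for Nrg4, the single EGF-family ligand gene listed, besides Nrg1 and Hbegf, that reached 1 FPKM. The 6 cysteine codons that hold the fold are in capitals. Both span 2 coding exons on the minus strand, at chr8:31837698-31849398 for Nrg1 and chr9:55242177-55280969 for Nrg4.
Nrg1: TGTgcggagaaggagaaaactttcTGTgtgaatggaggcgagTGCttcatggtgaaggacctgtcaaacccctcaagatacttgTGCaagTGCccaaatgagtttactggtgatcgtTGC
Nrg4: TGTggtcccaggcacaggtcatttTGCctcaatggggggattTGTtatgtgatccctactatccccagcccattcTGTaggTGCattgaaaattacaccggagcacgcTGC

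Erbb2 was the most abundant of the 6 genes and both ligands were lower in KD ventricles, but 0 of the 4 expressed genes (Nrg1, Hbegf, Erbb2 and Erbb4) were past 1.5-fold, beside 3.66% of all expressed genes. These 4 genes were lower in KD, with a median difference of -0.24, where the median of the 11606 was 0.00. Egfr and Erbb3, below 1 FPKM in both groups, were higher in KD. The order of the levels was the same in both groups, from Erbb2 through Hbegf, Nrg1, Erbb4 and Erbb3 to Egfr. Whether neighbours in this order differ beyond the spread between embryos could not be measured.

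**Figure D1:**
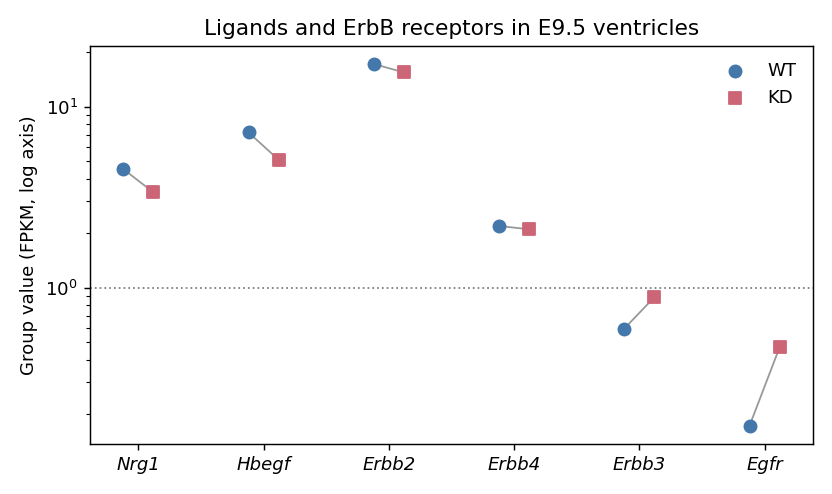
FPKM of each ligand and receptor gene (log axis) in WT (circles) and KD (squares), 1 value per group estimated by the authors from 3 embryos, with no error bars because no values of single embryos were at hand. Nrg1, Hbegf, Erbb2 and Erbb4 lie above the dotted line at 1 FPKM and are lower in KD, and Erbb3 and Egfr lie below it and are higher in KD.

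Nrg1, the ligand required for trabeculation, had 4.52 FPKM in WT against 3.36 in KD, a difference of -0.34. The WT level was above that of 31.4% of the 11606 genes and the KD level above that of 24.3%. The deposited row covers chr8:31818028-31918203 (mm10), 100.2 kb, whereas GENCODE M21 gives the gene 1069 kb on the minus strand. Of 12 coding transcripts of Nrg1 in that annotation, 4 start within 1 kb of the start of the row. Others start 90.9 to 91.2 kb from it, and the most upstream starts 966 kb before it. The value thus refers to the downstream gene model, in which reads from exons shared with other transcripts could also count. Transcripts from the other starts were not analysed here as such.

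Hbegf had 7.19 FPKM in WT against 5.08 in KD, a difference of -0.43, the largest in size among the 6 genes with a pseudocount of 1 (with 0.5 that of Egfr was larger, and with 0.1 those of Egfr and Erbb3). It lies on chr18:36504927-36515805 on the minus strand, and the row has the extent of the annotated gene. The middle 90% of expressed genes lay between -0.36 and 0.43, so Hbegf was below this range and Nrg1 just inside it. Together the 2 ligands summed to 11.7 FPKM in WT against 8.44 in KD. Their proportion stayed close, since Hbegf took 61.4% of this in WT against 60.2% in KD.

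**Figure D2:**
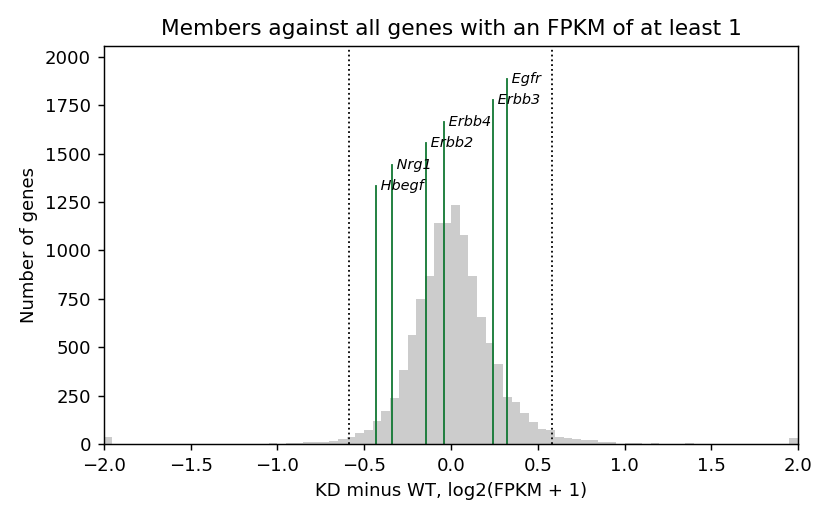
Number of genes (bars) by KD minus WT difference in log2(FPKM + 1), for the 11606 expressed genes, with values beyond 2 in size placed in the end bars; solid lines mark the 6 ligand and receptor genes and dotted lines 1.5-fold. Hbegf at -0.43 and Nrg1 at -0.34 lie on the lower flank, and Erbb3 at 0.24 and Egfr at 0.33, which are not among the counted genes, on the upper flank, all within the dotted lines.

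Among the receptors, Erbb2, the shared partner, had 17.2 FPKM in WT against 15.4 in KD, a difference of -0.14. Of the summed FPKM of the 4 receptors it made up 85.3% in WT, against 81.7% in KD. Its row, chr11:98412484-98438988, is shared in the table with Mien1 (listed as 1810046J19Rik), which had 140 FPKM in WT against 148 in KD. Reads where the genes overlap could be split between them, so the Erbb2 value is less certain.

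Erbb4, the neuregulin receptor of cardiomyocytes, was nearly level, at 2.19 FPKM in WT against 2.10 in KD, a difference of -0.04. It lies on chr1:68039966-69108059 on the minus strand. Its share of the receptor sum was 10.9% in WT and 11.1% in KD. Erbb2 exceeded Erbb4 by 7.83 times in WT and 7.34 times in KD. Set against its ligand, Erbb4 stood at 0.485 of the Nrg1 FPKM in WT and 0.625 in KD.

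Erbb3, on chr10:128569368-128589501, had 0.595 FPKM in WT against 0.887 in KD, a difference of 0.24. Egfr, on chr11:16752203-16913907, had 0.173 FPKM in WT against 0.470 in KD, a difference of 0.33. Egfr was thus 0.862% of the receptor sum in WT and 2.49% in KD, and Erbb3 was 2.96% and 4.70%. At these levels the choice of pseudocount weighs heavily, and with 0.1 in place of 1 the difference of Egfr was 1.06 and that of Erbb3 was 0.51. The sum of the receptors was 20.1 FPKM in WT against 18.9 in KD.

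**Figure D3:**
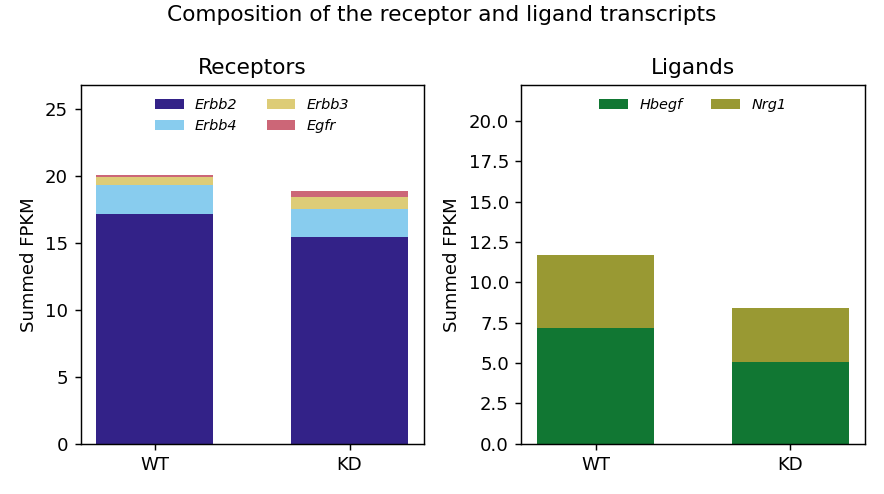
Summed FPKM of the 4 receptors (left) and 2 ligands (right) in WT and KD, 1 group value per gene and no error bars, with each gene as a segment. Erbb2 fills most of the receptor bar in both groups, 85.3% in WT and 81.7% in KD, and the ligand bar goes from 11.7 FPKM in WT to 8.44 FPKM in KD with both segments smaller.

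In bulk tissue, fewer cells of a type and less RNA per cell cannot be told apart. The endocardial and endothelial list of 12 genes, the source of Nrg1, summed to 386 FPKM in WT against 468 in KD. In this list 8 genes were higher, 4 lower and 0 past 1.5-fold, where 3.66% of all expressed genes were. Its highest genes were Plvap (129 FPKM in WT against 179 in KD) and Egfl7 (71.4 and 89.1 FPKM), both vascular genes. Emcn, the next in level, had 43.1 and 57.4 FPKM. Of the genes used as endocardial markers, Nfatc1 had 16.4 FPKM in WT against 13.7 in KD and Npr3 had 5.05 and 5.87 FPKM. Relative to the summed list, the Nrg1 difference was -0.62, past 1.5-fold. The rise of that sum lay in Plvap, Egfl7 and Emcn, so this value rests on them. The ratio of the sums was taken without a pseudocount. Relative to the median difference of the list it was -0.41, short of 1.5-fold, a scaling chosen after seeing the data. The cardiomyocyte list of 10 genes, the cells that carry ErbB2 and ErbB4, summed to 13225 FPKM in WT against 13012 in KD, with 0 genes past 1.5-fold and Myl4 (6082 and 5896 FPKM) and Tnni1 (2924 and 2867 FPKM) the highest. Relative to it, the differences were -0.12 for Erbb2 and -0.02 for Erbb4.

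Markers of other cell types differed between the groups. The epicardial list, the outer lining of the heart, summed to 47.1 FPKM in WT against 96.0 in KD. Of its 7 genes, 6 were expressed, and 4 of these were higher past 1.5-fold, where 2.20% of all expressed genes were, namely Upk3b (difference 1.31), Upk1b (1.18), Tcf21 (1.04) and Tbx18 (0.76). Wt1, at the top of these genes in WT though not in KD, had 13.8 FPKM in WT against 19.2 in KD. In the cushion mesenchyme list, the cells of the future valves, 3 of 7 genes were higher past 1.5-fold (Col1a1, 1.03; Pdgfra, 0.94; Sox9, 0.77) and 1 was lower (Msx1, -0.75). That list summed to 24.1 FPKM in WT against 36.4 in KD. Epicardial and mesenchymal cells can carry Erbb3 and Egfr, and the part of these lists in the higher Erbb3 and Egfr values was not tested.

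The remaining lists bear on which cells the tissue held. Of the neural crest markers, a lineage known for Erbb3, Foxd3 was listed at 0 in both groups, and Sox10 and Tfap2a were below 0.1 FPKM. Of 7 macrophage markers, Lyz2 alone reached 1 FPKM (20.3 and 16.5 FPKM), while Cd68 had 0.700 and 0.195 FPKM and Csf1r had 0.363 and 0.240 FPKM. No gene of the hepatic and yolk sac list reached 1 FPKM, Ttr being the highest (0.425 and 0.790 FPKM). Apoa1 had 0.175 FPKM in WT against 0.292 in KD and Afp had 0.00717 and 0.294 FPKM, and Alb and Fgb were listed at 0 in both groups. Erythroid genes were abundant, with Hba-x at 4401 FPKM in WT against 4318 in KD and Hbb-y at 4138 and 4453 FPKM. Of 7 erythroid genes 0 were past 1.5-fold, where 3.66% of all expressed genes were. In the atrial list 4 of 5 expressed genes were higher and 1 was lower, with a median difference of 0.42. Nppa, which is also in the trabeculation list below, was among the higher genes. Nr2f2 was past 1.5-fold (2.01 FPKM in WT against 4.15 in KD), Myl7, the lower gene, was at 13643.1 and 12907 FPKM, and Sln was listed at 0.

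**Figure D4:**
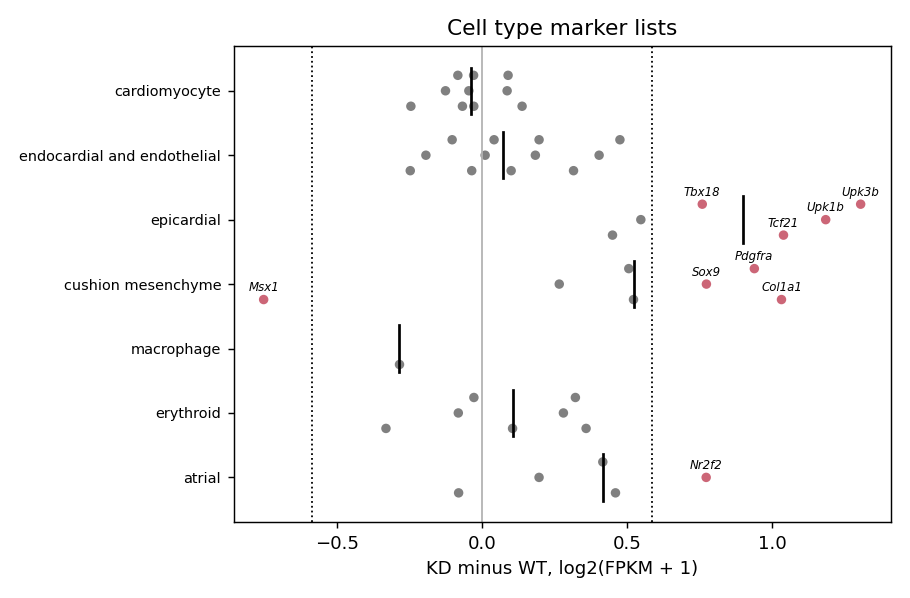
KD minus WT difference in log2(FPKM + 1) for each expressed marker gene (points) of the cell type lists shown, with the list median (black bar) and 1.5-fold (dotted lines); genes past 1.5-fold are coloured and named. Cardiomyocyte, endocardial and erythroid genes lie within the dotted lines. To the right of them lie 4 epicardial genes, 3 cushion genes and the atrial gene Nr2f2, and to the left the cushion gene Msx1.

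The wider pathway was followed with 6 lists of 85 genes, of which 74 were expressed. Of these 74 genes, 3 were higher and 1 was lower past 1.5-fold in KD, which is 5.41% against 3.66% of all expressed genes. With a pseudocount of 0.5 or 0.1 the pathway count stayed at 4, whereas that of all expressed genes rose to 5.41% and 7.58%, so the pathway share did not exceed the background under either. With a minimum of 5 FPKM the pathway count was 4 of 51 genes beside 2.93% of all, and with no minimum 4 of 85 beside 2.05%. Their median difference was -0.00126. The lists are given below in the order of the signal.

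Other EGF-family ligands were scarce. Of 9 genes, Nrg4 alone reached 1 FPKM, with 2.28 FPKM in WT against 2.74 in KD. Tgfa, a ligand of EGFR, had 0.674 FPKM in WT against 0.940 in KD, and Areg had 0.205 and 0.289 FPKM. Ereg and Nrg3 were listed at 0 in both groups. Nrg1 and Hbegf were thus the highest EGF-family ligand genes in either group.

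The ligands are made as membrane proteins and are released by sheddases. All 8 genes of this list were expressed and 0 were past 1.5-fold, where 3.66% of all expressed genes were. The median difference was 0.07. Adam10 had 15.7 FPKM in WT against 16.8 in KD, and Adam9 had 10.5 and 9.12 FPKM. Differences ran from -0.27 for Adam19, which can cleave neuregulin, to 0.37 for Rhbdf2, a partner of the sheddase ADAM17.

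Inside the cell, the adaptors and kinases that carry the signal to ERK and AKT were close between the groups. Of 28 genes 0 were past 1.5-fold, where 3.66% of all expressed genes were. Of the 28 genes, 13 were higher and 15 lower, and the median difference was -0.01. Map2k2 had 88.9 FPKM in WT against 92.2 in KD and Map2k1 had 87.9 and 87.5 FPKM, both MAP kinase kinases that activate ERK.

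Genes that restrain the receptors were mostly lower in KD. Of 10 expressed genes, 8 were lower and 2 higher, with a median difference of -0.28 beside 0.00 over all expressed genes. One was past 1.5-fold, where 1.46% of all expressed genes were lower past it. This was Errfi1, which encodes MIG6, a feedback inhibitor that binds the ErbB kinase domain, with 10.8 FPKM in WT against 6.75 in KD, a difference of -0.60. Rnf41, a ubiquitin ligase that directs ErbB3 to degradation, had 12.9 FPKM in WT against 11.4 in KD, and Socs4, a suppressor of EGFR signalling, had 12.3 and 9.96 FPKM.

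Genes that respond to ERK activity lay on both sides of 0. Of 13 expressed genes 8 were higher and 5 lower, with a median difference of 0.14. Egr1, an immediate early transcription factor, had 8.41 FPKM in WT against 15.9 in KD (difference 0.85), and Dusp5, a phosphatase of ERK, had 3.17 and 5.64 FPKM (0.67). Both were past 1.5-fold, where 2.20% of all expressed genes were higher past it. Ccnd1, the highest of the list, had 46.7 FPKM in WT against 60.6 in KD. Dusp6, the ERK phosphatase next in level, had 39.7 and 43.9 FPKM. These genes answer to many receptors besides the ErbB family.

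Trabeculation genes, which act in the process that needs Nrg1, were mixed. Of 14 expressed genes 8 were higher and 6 lower, with a median difference of 0.09. One was past 1.5-fold, where 2.20% of all expressed genes were higher past it. This was Gja5, the connexin of trabecular muscle, with 7.02 FPKM in WT against 12.1 in KD (difference 0.71). Nppa, a natriuretic peptide gene of the trabecular layer that is also in the atrial list, had 2588 FPKM in WT against 2967 in KD. Nppb, its neighbour and relative, had 485 and 360 FPKM, the lowest difference of the list at -0.43. In sum, the list went from 3531 FPKM in WT to 3851 FPKM in KD, most of it Nppa.

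**Figure D5:**
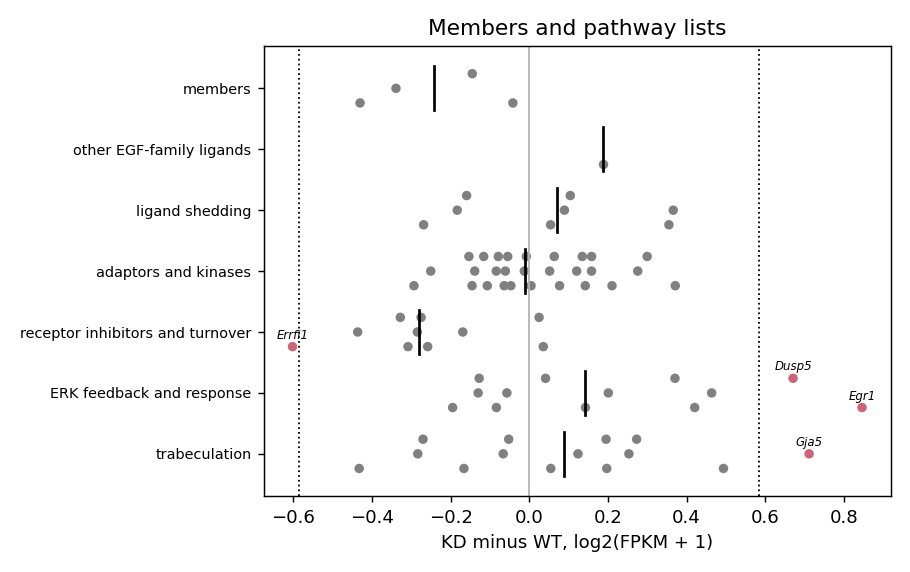
KD minus WT difference in log2(FPKM + 1) for the ligand and receptor genes (top) and the 6 pathway lists, each expressed gene as a point, with the list median (black bar) and 1.5-fold (dotted lines); genes past 1.5-fold are coloured and named. The medians of the ligand and receptor genes (-0.24) and of the receptor inhibitors (-0.28) lie left of 0 and that of ERK response genes (0.14) right of it.

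Tbx5ua itself was not analysed here, so the targeted gene gives no check of the group labels. Tbx5, its neighbour, had 17.2 FPKM in WT against 15.7 in KD, a difference of -0.13.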

How the data were processed

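Single-end Smart-Seq2 RNA-seq libraries were made by the authors from ventricles of 3 WT and 3 KD embryos at E9.5, amplified in 12 PCR cycles before tagmentation and 9 after it. The submitters' processing notes name TopHat, Bowtie2, Cuffdiff and mm10; versions and options are not given in the sources used here. The deposited table holds 1 FPKM per gene and group, made by the authors with Cuffdiff from the embryos together (KD is named KO there), and 0 columns of single embryos. It also holds the authors' own fold changes, test scores, p-values and q-values, which were not used.

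Differences were log2(FPKM + 1), KD minus WT. Genes that reached 1 FPKM in WT, KD or both were counted (expressed genes), and a gene was called at 1.5-fold. No test was made between the groups. The 6 genes and all lists were chosen with earlier results of these data known. Named genes were the 6, those of each list past 1.5-fold and the 2 highest of each list (3 for adaptors and kinases), some of which are not reported here. A few others, such as Emcn, Nfatc1, Npr3, Csf1r, Afp, Areg, Adam19, Rhbdf2 and genes listed at 0, were chosen after their values were seen. Starts had 1 added. Older symbols were matched for Erbin, Adgrg6, Adgre1, Hras and Mien1. Coding sequences are those of the longest coding transcript of GENCODE M21. RefSeq promoter sequences were not used. The scripts were tested on simulated data. Alternatives were pseudocounts of 0.1 and 0.5, centring, a fold of 2, other FPKM minimums and scaling to marker lists. Python 3.11.15, NumPy 2.4.6, pandas 2.3.3, Matplotlib 3.10.9 and Biopython 1.88 were used.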

Additional observations from a re-analysis of the deposited data

How the results depend on the processing

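No paired analysis was possible because each group has 1 value per gene, and for the same reason leaving out each replicate was not run. Depth is unknown, which limits what can be said of Egfr and Erbb3. The count of ligand and receptor genes past 1.5-fold was 0 under each pseudocount, fold, filter and centring tried. Egfr exceeded 1.5-fold with a pseudocount of 0.1 but stayed below the minimum of 1 FPKM. Nrg1 was lower past 1.5-fold when scaled to the sum of the endocardial and endothelial list (-0.62). The rise of that sum lay in Plvap, Egfl7 and Emcn. The count of pathway genes past 1.5-fold was 4 under each pseudocount and filter tried, and 0 at 2-fold. Over all expressed genes the count of 425 became 628 (5.41%) with a pseudocount of 0.5, 880 (7.58%) with 0.1, 142 at 2-fold and 232 with a minimum of 5 FPKM. Each of the 6 differences kept its sign under the alternatives run.

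With a pseudocount of 0.1 the differences were -0.42 for Nrg1, -0.49 for Hbegf, 1.06 for Egfr, -0.15 for Erbb2, 0.51 for Erbb3 and -0.0581 for Erbb4. With 0.5 they were -0.38 for Nrg1, -0.46 for Hbegf, 0.53 for Egfr, -0.15 for Erbb2, 0.34 for Erbb3 and -0.0493 for Erbb4. Less the median of all genes they were 0.32 for Egfr, -0.15 for Erbb2 and -0.0457 for Erbb4. Scaled to the sum of marker lists they were -0.62 for Nrg1 (endocardial and endothelial), -0.12 for Erbb2 and -0.0181 for Erbb4 (cardiomyocyte). Less the median of those lists, chosen after seeing the data, they were -0.41, -0.11 and -0.00493. Differences that kept their first 2 decimals are not repeated here.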
